A study of Mus musculus with 18 samples.

Results

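The genes described here are 10 markers of dendritic cells, Flt3, Batf3, Xcr1, Siglech, Ccr7, Fscn1, Cd24a, Kmo, Dpp4 and Il12b. They were taken by symbol from the 24421 gene symbols of the count files, and all 10 were found. They were read in 3 populations sorted from the synovium of adult C57BL/6 mice, to ask whether genes of dendritic cells are present in the MHCII+CD11c+ gate. The populations, all labelled as macrophages, were LYVE1+CX3CR1+ cells (MHCII-Ly6C-), MHCII+CD11c- cells and MHCII+CD11c+ cells. From each population 3 libraries came from untreated mice, and another 3 from mice culled 8 h after intravenous immune complexes (IC), which were ovalbumin bound by a rabbit antiserum against it. That makes 18 bulk RNA-seq libraries, each from the pooled legs of several mice, and no group carried a genetic modification. A bulk library averages over its cells, so more cells of a type and more RNA per cell cannot be told apart.

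Dendritic cells present antigen to T cells. Conventional dendritic cells depend on the cytokine receptor FLT3. They divide into cDC1, which need the transcription factor BATF3 and carry the chemokine receptor XCR1, and cDC2, which share more genes with monocytes and macrophages. Plasmacytoid dendritic cells, a source of type I interferon, carry Siglec-H. A dendritic cell that matures gains CCR7, the receptor that guides it to the lymph node, and fascin (Fscn1), which bundles actin in its protrusions. Many macrophages and dendritic cells both express CD11c and MHCII, so these surface proteins alone do not separate them.

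Library totals lay between 245903 and 2172358 counts, and the MHCII+CD11c- libraries with IC were the shallowest, at 245903, 381217 and 973951. Levels are given as CPM, the gene’s counts scaled to a common library size with TMM factors, for replicates 1, 2 and 3 in that order. A count of 0 allows up to 3 counts, which is 1.44 to 11.3 CPM depending on the library, and a group with no library above 3 counts is said to be at its floor. The genes of the sorting markers ranked the untreated subsets as their labels do. Itgax, which encodes CD11c, was at 240.0 to 303.7 CPM in the MHCII+CD11c+ libraries and at 0 to 13.3 CPM in the other untreated libraries. H2-Ab1, an MHCII chain, was at 20.1 to 20.5 CPM in LYVE1+CX3CR1+ libraries and at 4548 to 7825 CPM in both MHCII+ subsets. Untreated Cx3cr1 was at 708.4 to 829.6 CPM in LYVE1+CX3CR1+, 269.7 to 290.9 CPM in MHCII+CD11c- and 57.9 to 78.8 CPM in MHCII+CD11c+ libraries. Its log2 fold change in MHCII+CD11c+ over MHCII+CD11c- cells was -2.07 (SE 0.20). Lyve1 RNA was not limited to its subset, with 328.9 to 439.1 CPM in untreated MHCII+CD11c+ and 702.3 to 881.6 CPM in MHCII+CD11c- libraries, against 2171 to 2563 CPM in LYVE1+CX3CR1+ libraries. With IC these ranges were 1001 to 1232, 515.8 to 2290 and 3172 to 3555 CPM. Itgax with IC was at 70.6, 33.9 and 31.0 CPM in MHCII+CD11c- and at 382.6, 272.9 and 357.0 CPM in MHCII+CD11c+ libraries. Its log2 fold change between these subsets was 5.39 without treatment and 2.96 with IC. H2-Ab1 with IC was at 3088, 2670 and 2926 CPM in MHCII+CD11c- and at 6539, 5525 and 6952 CPM in MHCII+CD11c+ libraries.

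**Figure D1:**
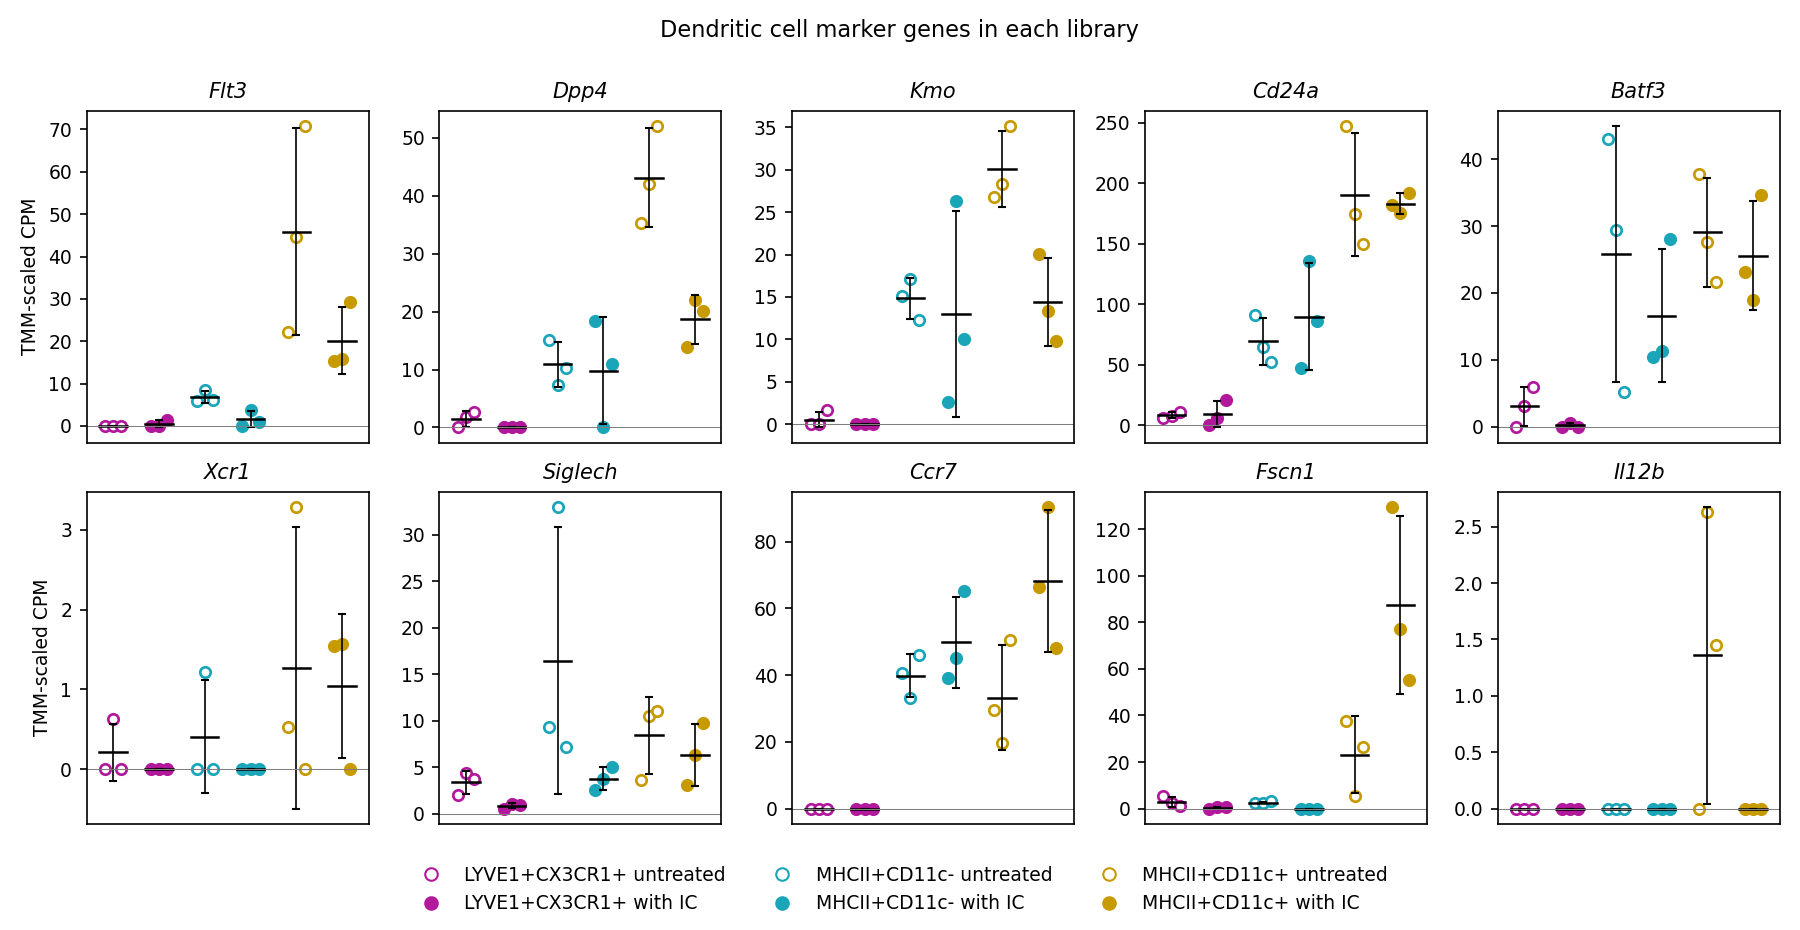
Level of each of the 10 genes (TMM-scaled CPM, linear axis, one scale per gene) in the 18 libraries, with points for libraries, horizontal lines for the mean and bars for the SD of 3 libraries. Flt3, Fscn1 and Cd24a are highest in both MHCII+CD11c+ groups, Ccr7 is at 0 in every LYVE1+CX3CR1+ library, and Xcr1 and Il12b stay below 4 CPM everywhere.

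Of the lineage genes, Flt3 (chr5:147330741-147400489, minus strand, GRCm38) was higher in MHCII+CD11c+ cells than in either other subset, without treatment and with IC. In untreated MHCII+CD11c+ libraries Flt3 was at 22.1, 44.7 and 70.9 CPM (42, 68 and 147 counts; mean 45.9 ± 24.4, SD, n = 3). In untreated MHCII+CD11c- libraries it was at 5.81, 8.56 and 6.13 CPM (5, 7 and 6 counts), and it had no count in any untreated LYVE1+CX3CR1+ library. All 3 MHCII+CD11c+ libraries lay above all the others, although they differed among themselves by more than the MHCII+CD11c- libraries did. The log2 fold change between the MHCII+ subsets was 2.74 (SE 0.58, adjusted p = 0.00732, edgeR quasi-likelihood test over 10550 genes). Without MHCII+CD11c+ replicate 3, the highest library, it was 2.28 with an adjusted p of 0.0959. Against LYVE1+CX3CR1+ cells the excess of Flt3 was at least 24.9-fold in MHCII+CD11c+ cells, and in MHCII+CD11c- cells at least 3.72-fold (adjusted p = 0.00174 for the latter).

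With IC, Flt3 was at 15.4, 15.7 and 29.2 CPM in MHCII+CD11c+ libraries (mean 20.1 ± 7.89, SD, n = 3). The MHCII+CD11c- libraries with IC had 0, 1 and 1 counts of Flt3, which is at the floor, and the LYVE1+CX3CR1+ libraries with IC had 0, 0 and 3 counts. Flt3 was thus at least 2.73-fold higher in MHCII+CD11c+ than in MHCII+CD11c- cells with IC (adjusted p = 0.0178). That call was lost without MHCII+CD11c- replicate 1 (adjusted p = 0.0570), MHCII+CD11c- replicate 3 (0.121) or MHCII+CD11c+ replicate 3 (0.0699). The MHCII+CD11c+ libraries with IC overlapped the untreated ones, and the difference of -1.15 in log2 did not pass (SE 0.50, adjusted p = 0.451).

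Dpp4 (chr2:62330073-62412315, minus strand), which encodes the surface peptidase CD26 found on cDC1 and on some T cells, followed the same order in untreated mice. It was at 35.2, 42.1 and 52.1 CPM in MHCII+CD11c+ libraries, at 15.1, 7.33 and 10.2 CPM in MHCII+CD11c- libraries and at 0, 1.88 and 2.69 CPM in LYVE1+CX3CR1+ libraries. These groups did not overlap. The log2 fold change between the MHCII+ subsets was 1.98 (SE 0.53, adjusted p = 0.0379). The call held without MHCII+CD11c- replicate 1 and was lost without any of the other 5 libraries (MHCII+CD11c- replicates 2 and 3, MHCII+CD11c+ replicates 1, 2 and 3), with log2 fold changes of 1.77 to 2.11 and adjusted p of 0.0652 to 0.161. With IC, Dpp4 was at 13.9, 22.0 and 20.1 CPM in MHCII+CD11c+ libraries and at 18.3, 0 and 11.0 CPM in MHCII+CD11c- libraries. There the groups overlapped (log2 fold change 0.83, SE 0.61, adjusted p = 0.553). An antisense gene, Gm13561, overlaps Dpp4 in the annotation, and the strand setting of the counting is not given in the sources used here.

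Kmo (chr1:175632193-175660853, plus strand), an enzyme of tryptophan breakdown used as a gene of conventional dendritic cells, did not pass between the MHCII+ subsets. Untreated MHCII+CD11c+ libraries had 26.8, 28.3 and 35.2 CPM, and untreated MHCII+CD11c- libraries had 15.1, 17.1 and 12.3 CPM. The libraries did not overlap, yet the log2 fold change of 1.02 (SE 0.55) had an adjusted p of 0.383. With IC the values were 20.1, 13.4 and 9.75 CPM and 2.61, 26.4 and 10.01 CPM, which overlapped (log2 fold change 0.25, SE 0.66, adjusted p = 0.905). In LYVE1+CX3CR1+ cells Kmo had 3 counts in 1 of 6 libraries and none in the other 5.

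Cd24a (chr10:43579169-43584265, plus strand) encodes CD24, a surface protein of cDC1 that B cells and neutrophils also carry, and it was the most abundant member. It was at 247.5, 174.2 and 149.5 CPM in untreated MHCII+CD11c+ libraries (mean 190.4 ± 50.9, SD, n = 3) and at 90.7, 64.8 and 52.1 CPM in untreated MHCII+CD11c- libraries. LYVE1+CX3CR1+ libraries had 6.06, 7.52 and 10.8 CPM. The 3 groups did not overlap, and the log2 fold change between the MHCII+ subsets was 1.46 (SE 0.41, adjusted p = 0.0450). DESeq2 did not call it (adjusted p = 0.257), and in edgeR the call was lost without any library but MHCII+CD11c- replicate 1, that is without MHCII+CD11c- replicate 2 or 3 or MHCII+CD11c+ replicate 1, 2 or 3 (log2 fold changes of 1.23 to 1.62, adjusted p of 0.0582 to 0.193). With IC, Cd24a was at 182.0, 175.4 and 191.9 CPM in MHCII+CD11c+ libraries and at 47.1, 135.5 and 86.1 CPM in MHCII+CD11c- libraries. These did not overlap either, but the log2 fold change of 1.08 (SE 0.43) did not pass (adjusted p = 0.215). In untreated MHCII+CD11c+ against MHCII+CD11c- libraries, 9 B cell genes summed to 98.8 to 132.6 against 297.1 to 391.8 CPM. For 8 neutrophil genes the sums were 4.60 to 561.1 against 733.5 to 1827 CPM, and none of the 8 was called. With IC the neutrophil sums overlapped, at 1004 to 2275 against 1487 to 4160 CPM. The part of B cells and neutrophils in the Cd24a difference was not tested.

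Of the cDC1 genes, Batf3 (chr1:191098414-191108943, plus strand) was present in both MHCII+ subsets and did not differ beyond its spread. It was at 37.8, 27.6 and 21.7 CPM in untreated MHCII+CD11c+ libraries and at 43.0, 29.3 and 5.11 CPM in untreated MHCII+CD11c- libraries. The log2 fold change was 0.18 (SE 0.57, adjusted p = 0.929). With IC the values were 23.1, 18.9 and 34.7 CPM and 10.5, 11.3 and 28.0 CPM (log2 fold change 0.46, SE 0.64, adjusted p = 0.788). In LYVE1+CX3CR1+ cells Batf3 was at 0, 3.13 and 5.92 CPM in untreated libraries and had 1 count in 1 of 3 libraries with IC.

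Xcr1 (chr9:123852315-123862029, minus strand), the chemokine receptor of cDC1, was close to 0 throughout. The untreated MHCII+CD11c+ libraries had 1, 5 and 0 counts and those with IC 1, 2 and 0. Among the other 12 libraries 2 untreated ones, an MHCII+CD11c- and a LYVE1+CX3CR1+ library, had 1 count each. The 5 counts in MHCII+CD11c+ replicate 2 were the most in any library, at 3.29 CPM. Xcr1 did not pass the filter on low counts and was called in no comparison when the filter was left out. The same held for Clec9a, another receptor of cDC1, which was at 0.53, 2.63 and 5.79 CPM in untreated MHCII+CD11c+ libraries and at 0 in every library with IC.

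Siglech (chr7:55768154-55779448, plus strand), the member that marks plasmacytoid dendritic cells, was low, and it was not higher in MHCII+CD11c+ than in MHCII+CD11c- cells. It was at 3.68, 10.5 and 11.1 CPM in untreated MHCII+CD11c+ libraries and at 9.30, 33.0 and 7.15 CPM in untreated MHCII+CD11c- libraries, of which replicate 2 alone stood high. The log2 fold change was -0.95 (SE 0.66, adjusted p = 0.525), and 0.04 without that library. LYVE1+CX3CR1+ libraries had 2.02, 4.39 and 3.77 CPM of Siglech. With IC, Siglech was at 3.09, 6.29 and 9.75 CPM in MHCII+CD11c+ libraries, at 2.61, 3.77 and 5.01 CPM in MHCII+CD11c- libraries and at 0.56, 1.05 and 0.96 CPM in LYVE1+CX3CR1+ libraries, which were at the floor. MHCII+CD11c+ cells were at least 4.06-fold higher than LYVE1+CX3CR1+ cells with IC (adjusted p = 0.0159), and the untreated difference of 1.28 in log2 did not pass (SE 0.70, adjusted p = 0.226).

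Of the maturation genes, Ccr7 (chr11:99144199-99155077, minus strand) separated both MHCII+ subsets from LYVE1+CX3CR1+ cells and not from each other. No LYVE1+CX3CR1+ library held a single count. In untreated mice Ccr7 was at 29.4, 19.7 and 50.6 CPM in MHCII+CD11c+ libraries and at 40.7, 33.0 and 46.0 CPM in MHCII+CD11c- libraries. With IC it was at 66.3, 90.4 and 48.1 CPM and at 39.2, 45.2 and 65.1 CPM. The MHCII+ subsets overlapped in both states. Their log2 fold change was -0.25 without treatment (SE 0.36, adjusted p = 0.806). With IC it was 0.39 (SE 0.37, adjusted p = 0.670). Against LYVE1+CX3CR1+ cells, Ccr7 in untreated MHCII+CD11c+ cells was at least 18.1-fold higher and in untreated MHCII+CD11c- cells at least 21.7-fold higher (adjusted p = 7.06e-08 and 1.36e-07), and at least 43.5-fold and 31.7-fold higher with IC. B cells and T cells also express Ccr7, and the summed B cell genes were at 297.1 to 470.7 CPM in MHCII+CD11c- libraries, at 98.8 to 132.6 CPM in MHCII+CD11c+ libraries and at 0.67 to 5.38 CPM in LYVE1+CX3CR1+ libraries. Their part in the Ccr7 level was not tested.

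Fscn1 (chr5:142960355-142973189, plus strand) was nearly restricted to the CD11c+ gate. Untreated MHCII+CD11c+ libraries had 37.8, 5.26 and 26.5 CPM (72, 8 and 55 counts), and those with IC had 129.6, 77.1 and 55.4 CPM (84, 98 and 91 counts). MHCII+CD11c- libraries had 2, 2 and 3 counts without treatment and 0 counts with IC, and LYVE1+CX3CR1+ libraries had 8, 4 and 2 counts without treatment and 0, 1 and 1 with IC. The untreated MHCII+CD11c+ replicate 2 stood low and came within the range of the LYVE1+CX3CR1+ libraries, which reached 5.39 CPM. Against MHCII+CD11c- cells, Fscn1 was at least 6.81-fold higher without treatment (adjusted p = 0.0121) and at least 11.8-fold higher with IC (adjusted p = 1.22e-04). The untreated call was lost without MHCII+CD11c+ replicate 1 (adjusted p = 0.0653) or MHCII+CD11c- replicate 2 or 3 (both 0.0581), whereas the call with IC held without any single library (adjusted p up to 0.00279).

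Il12b (chr11:44400063-44414677, plus strand), the p40 chain of the cytokines IL-12 and IL-23, was found in 2 libraries. They were untreated MHCII+CD11c+ replicates 2 and 3, with 4 and 3 counts. The other 16 libraries had none, which at this depth does not show that the gene was silent in them.

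**Figure D2:**
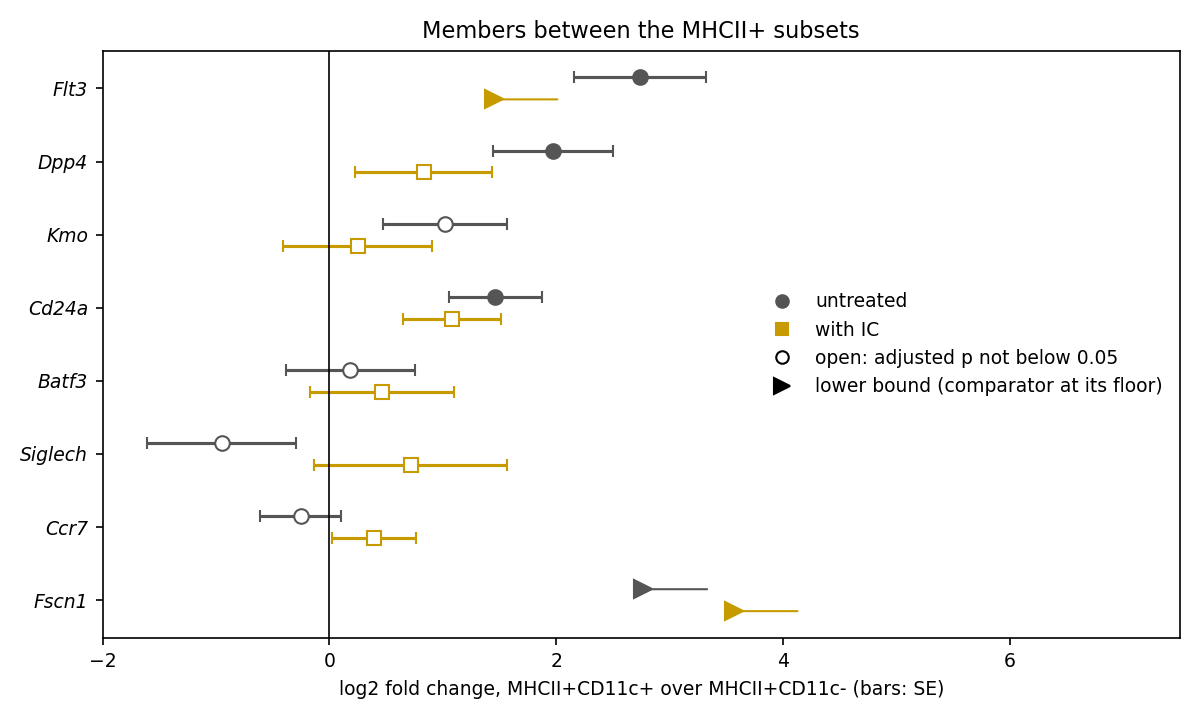
Log2 fold change of the 8 members past the filter between MHCII+CD11c+ and MHCII+CD11c- cells, without treatment (grey circles) and with IC (yellow squares), with bars for the SE. Filled symbols passed an adjusted p of 0.05 and triangles are lower bounds because the MHCII+CD11c- libraries were at the floor. Flt3, Dpp4, Cd24a and Fscn1 passed without treatment, and Flt3 and Fscn1 with IC.

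Of the 8 members that passed the filter, 4 (Flt3, Fscn1, Cd24a and Dpp4) were higher in MHCII+CD11c+ than in MHCII+CD11c- cells without treatment, where 1.89% of all 10550 genes were called higher, and none was lower. With IC 2 were higher (Flt3 and Fscn1), against 1.77% of all genes. Members enter the test partly because they are high in a group, so these counts are a description. Against LYVE1+CX3CR1+ cells, 7 of the 8 (all but Siglech) were higher in untreated MHCII+CD11c+ cells, where 12.4% of all genes were higher, and all 8 were higher with IC, against 11.5%. Fold changes in log2 without treatment were 3.16 for Batf3 (SE 0.67), 2.99 for Fscn1 (SE 0.62), 4.51 for Cd24a (SE 0.50) and 4.68 for Dpp4 (SE 0.63). In MHCII+CD11c- cells 7 of the 8 (all but Fscn1) were higher than in LYVE1+CX3CR1+ cells without treatment, against 7.12% of all genes, and 5 with IC (Batf3, Ccr7, Cd24a, Kmo and Dpp4), against 6.45%. For Siglech that untreated call (log2 fold change 2.23, SE 0.71, adjusted p = 0.0404) was lost without MHCII+CD11c- replicate 2, where the log2 fold change was 1.24 with an adjusted p of 0.394, and also without LYVE1+CX3CR1+ replicate 1, 2 or 3 (1.97, 2.42 and 2.30, with adjusted p of 0.163, 0.0829 and 0.108). It was also lost with a block by pool of mice (0.0648) and with no filter on low counts (0.0661). Batf3 lost it without MHCII+CD11c- replicate 1 (adjusted p = 0.0526), and Dpp4 without MHCII+CD11c- replicate 1 or LYVE1+CX3CR1+ replicate 1 (0.0622 and 0.0563). With IC, the call of Siglech in MHCII+CD11c+ over LYVE1+CX3CR1+ cells was lost without LYVE1+CX3CR1+ replicate 1 or MHCII+CD11c+ replicate 3 (adjusted p = 0.0683 and 0.108).

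No member passed the test of IC against no treatment in any subset, where 0.673% of all genes were called in MHCII+CD11c+ cells, 1.06% in MHCII+CD11c- cells and 0.464% in LYVE1+CX3CR1+ cells. At an unadjusted p below 0.05 there were 4, 2 and 4 of 8 members in these subsets, against 9.48%, 14.6% and 8.71% of all genes, and DESeq2 called none. In MHCII+CD11c+ cells Fscn1 came nearest. Each library with IC lay above each untreated library (means 87.4 ± 38.1 and 23.2 ± 16.5 CPM, SD, n = 3), and the log2 fold change was 1.87 (SE 0.49, adjusted p = 0.0930). Fits with no filter on low counts, with the replicate number as a block and with 1 surrogate variable did call it (adjusted p = 0.00115, 0.0431 and 0.0327). Leaving out 1 of the libraries gave log2 fold changes of 1.42 to 2.39 and no call.

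The other members of MHCII+CD11c+ cells gave smaller differences with IC. Ccr7 averaged 68.3 ± 21.2 CPM with IC and 33.3 ± 15.8 CPM without (log2 fold change 1.02, SE 0.34, adjusted p = 0.242), with an overlap of 1 library on each side. Dpp4 averaged 18.7 ± 4.25 and 43.1 ± 8.49 CPM (log2 fold change -1.18, SE 0.49, adjusted p = 0.405), and Kmo 14.4 ± 5.23 and 30.1 ± 4.49 CPM (-1.12, SE 0.54, adjusted p = 0.535). For both genes every library with IC was below every untreated one. With Fscn1, where every library with IC was above, the groups of 3 of the 8 members did not overlap in either direction, as for 18.5% of all genes. Cd24a and Batf3 averaged 183.1 and 190.4 CPM and 25.6 and 29.0 CPM (log2 fold changes of -0.06, SE 0.38, and -0.16, SE 0.56). The neutrophil list moved with IC in the same libraries, from 4.60 to 561.1 CPM without treatment to 1004 to 2275 CPM with IC, and 2 of its 8 genes were called higher. The 7 monocyte genes, of which 2 were called higher, summed to 6426 to 9321 CPM without treatment and 6305 to 8063 CPM with IC. That sum did not reflect most of the list. Its median log2 fold change was 2.48, with 5 genes fitted higher and 2 lower. The part of these cells in the differences was not tested.

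In the other subsets no member was called with IC either. Ccr7 averaged 49.8 ± 13.5 CPM with and 39.9 ± 6.52 CPM without IC in MHCII+CD11c- cells, and Cd24a 89.6 ± 44.3 and 69.2 ± 19.7 CPM. In MHCII+CD11c- cells the smallest adjusted p was that of Siglech (0.242; 16.5 ± 14.3 CPM without and 3.80 ± 1.197 CPM with IC), and in LYVE1+CX3CR1+ cells that of Dpp4 (0.263; 8 counts in 3 untreated libraries, none with IC). The response to IC did not differ between subsets for any member at an adjusted p of 0.05, where 0.00948% of genes passed for MHCII+CD11c+ against either other subset and 0% for MHCII+CD11c- against LYVE1+CX3CR1+ cells.

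**Figure D3:**
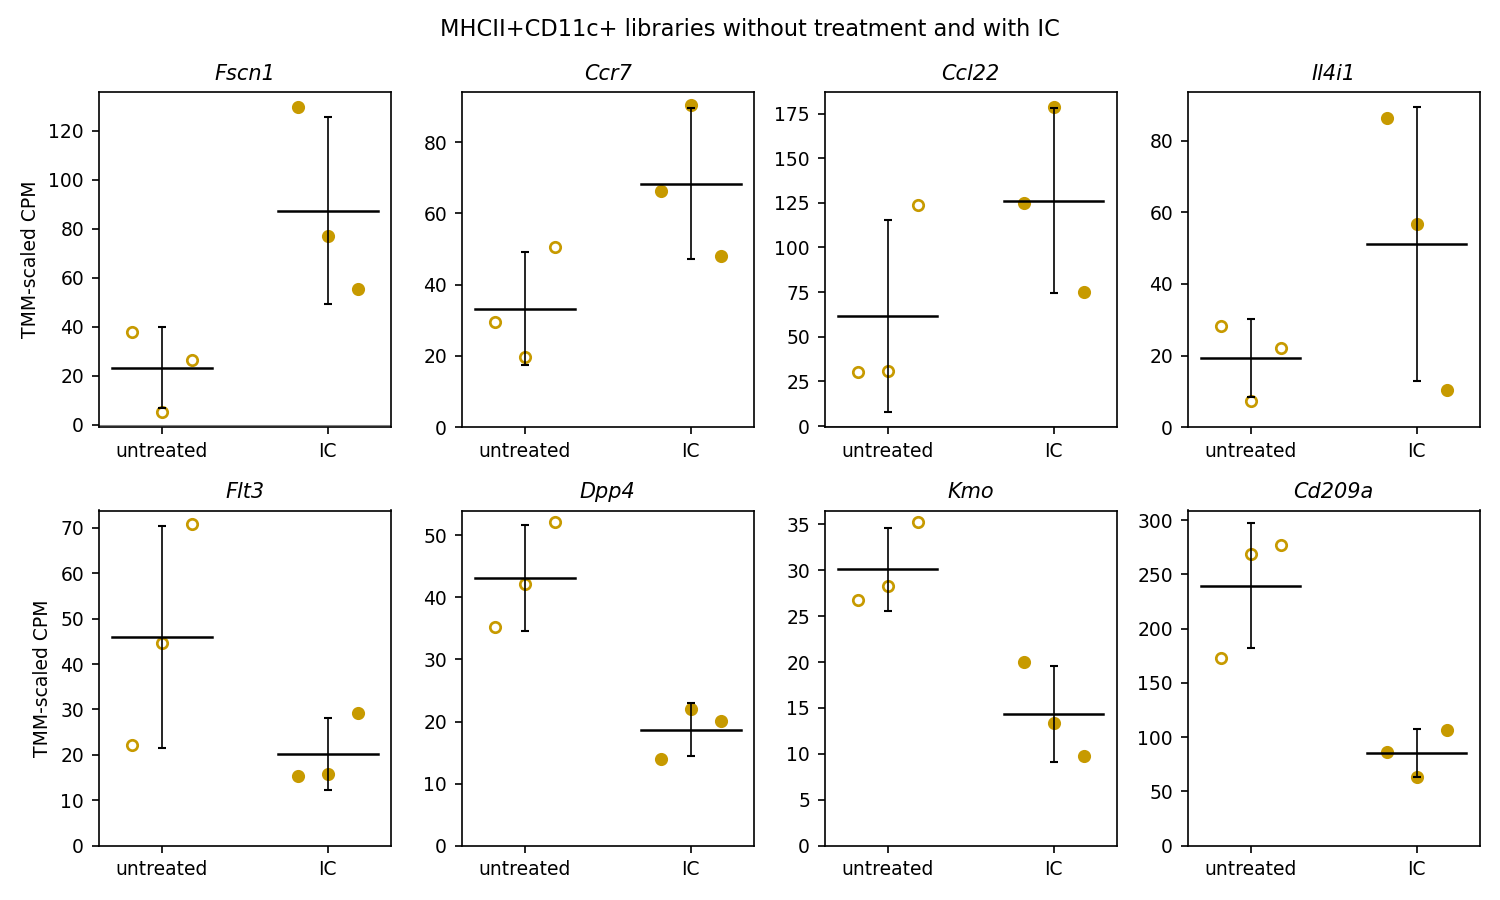
Levels (TMM-scaled CPM, linear axes) of 5 members and of Ccl22, Il4i1 and Cd209a in the 6 MHCII+CD11c+ libraries, with points for libraries, lines for means and bars for SD (n = 3). Fscn1 is higher and Dpp4, Kmo and Cd209a are lower in every library with IC than in any without, and of these Cd209a alone passed the test.

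Further genes of conventional dendritic cells, from a list of 20 of which 17 were tested, gave 2 calls higher and none lower in MHCII+CD11c+ over MHCII+CD11c- cells without treatment. The median log2 fold change of the list was 0.70, and that of all genes -0.01. Gpr132, a receptor for lipids, was at 74.1, 88.1 and 111.4 CPM against 39.5, 31.8 and 31.7 CPM (log2 fold change 1.41, SE 0.31, adjusted p = 0.00764), and the adhesion receptor Adgrg5 was at least 7.11-fold higher. With IC the 2 called were Slamf7 (log2 fold change 2.14, SE 0.45, adjusted p = 0.00720) and Zbtb46. Zbtb46, a transcription factor of conventional dendritic cells, was at 13.9, 26.0 and 7.92 CPM in MHCII+CD11c+ libraries with IC and at the floor in MHCII+CD11c- libraries, and was thus at least 2.16-fold higher in the former (adjusted p = 0.0261). Without treatment Zbtb46 was at 12.1, 25.6 and 25.1 CPM and at 8.14, 4.89 and 9.19 CPM, and it did not pass.

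Of 12 further cDC1 genes, 7 were tested and 2 were higher in untreated MHCII+CD11c+ cells, with a list median of -0.22. Naaa, a lysosomal amidase, was at 507.5, 456.2 and 521.3 CPM against 252.3, 215.2 and 224.7 CPM (log2 fold change 1.10, SE 0.16, adjusted p = 1.57e-04). Cadm1, an adhesion molecule of cDC1, was at 10.5, 20.4 and 16.9 CPM and at least 4.67-fold higher than in MHCII+CD11c- cells. LYVE1+CX3CR1+ libraries also held Cadm1, at 3.37, 7.52 and 9.15 CPM without treatment. With IC Naaa alone was called (log2 fold change 1.42, SE 0.17). Cadm1 was then at 1.54 to 5.51 CPM in MHCII+CD11c+ libraries and at 7.89, 8.96 and 2.40 CPM in LYVE1+CX3CR1+ libraries. Irf8, the transcription factor that cDC1 and plasmacytoid dendritic cells require, was at 70.9, 61.8 and 94.0 CPM in untreated MHCII+CD11c+ libraries, below the 132.5, 127.1 and 110.3 CPM of MHCII+CD11c- libraries, and did not pass.

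Of 10 cDC2 genes, 7 were tested. Cd209a, a lectin of cDC2 and monocyte-derived cells, was higher in MHCII+CD11c+ cells in both states. It was at 173.4, 268.9 and 276.8 CPM against 47.7, 59.9 and 86.8 CPM without treatment (log2 fold change 1.88, SE 0.29, adjusted p = 4.79e-04) and at 86.4, 62.9 and 106.6 CPM against 7.84, 37.7 and 20.03 CPM with IC (log2 fold change 2.07, SE 0.39, adjusted p = 0.00276). With IC the lectins Mgl2 and Clec10a, which macrophages also express, were called too (log2 fold changes of 1.21 and 1.11, SE 0.24 and 0.26). Cd209a was also lower with IC than without in MHCII+CD11c+ cells (log2 fold change -1.48, SE 0.28, adjusted p = 0.0136) and in MHCII+CD11c- cells (-1.68, SE 0.40, adjusted p = 0.0364). Irf4, a transcription factor of cDC2, was at 168.6, 217.6 and 196.3 CPM in untreated MHCII+CD11c+ libraries and at 150.0, 136.9 and 108.3 CPM in MHCII+CD11c- libraries, and was not called.

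None of 7 tested plasmacytoid genes passed between the MHCII+ subsets in either state, of 12 listed. Against LYVE1+CX3CR1+ cells, 3 were higher in untreated MHCII+CD11c+ cells (Spib, Ly6d and Tlr9) and 1 was lower (Tcf4), with a list median of 1.98 in log2 against 0.02 for all genes. With IC 5 were higher (also Runx2 and Irf7), and Tcf4 was again lower. In MHCII+CD11c- cells 4 of the 7 were higher than in LYVE1+CX3CR1+ cells and 0 lower, in either state. All 9 B cell genes were also higher in both untreated MHCII+ subsets than in LYVE1+CX3CR1+ cells. The part of B cells in these differences was not tested. Irf7, an interferon-induced transcription factor, was the gene of the plasmacytoid list called with IC against no treatment. It averaged 147.6 ± 26.9 against 55.0 ± 5.01 CPM in MHCII+CD11c+ cells (log2 fold change 1.42, SE 0.29, adjusted p = 0.0171) and 160.0 ± 47.2 against 62.4 ± 8.14 CPM in MHCII+CD11c- cells (1.34, SE 0.32, adjusted p = 0.0355). Tcf4, the transcription factor that sets this lineage, was at 77.8, 103.2 and 107.1 CPM in untreated MHCII+CD11c+ libraries and at 109.3, 108.8 and 128.7 CPM in MHCII+CD11c- libraries. It was highest in the untreated LYVE1+CX3CR1+ libraries, at 190.0, 196.8 and 210.0 CPM.

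Of 24 further maturation genes, 19 were tested, and without treatment 2 were higher and 1 lower in MHCII+CD11c+ cells. Both that were higher encode chemokines that bind CCR4, and whether macrophages or dendritic cells of the gate carried them was not tested. Ccl17 was at 82.0, 59.2 and 59.8 CPM in MHCII+CD11c+ libraries and at 0 in all 6 other untreated libraries, at least 19.7-fold over MHCII+CD11c- cells (adjusted p = 3.84e-05). Ccl22 was at 30.5, 30.9 and 123.9 CPM, with a single count in 1 MHCII+CD11c- library, at least 18.1-fold over that subset. Cd40, a costimulatory receptor that macrophages and B cells also carry, was lower (log2 fold change -1.23, SE 0.26, adjusted p = 0.00552). With IC 4 genes were higher and none lower, among them Ccl22 (at least 17.1-fold), Ccl17 (log2 fold change 4.46, SE 0.74) and the enzyme Il4i1 (at least 6.93-fold). In MHCII+CD11c+ libraries with IC, Ccl22 was at 124.9, 178.5 and 74.9 CPM and Il4i1 at 86.4, 56.6 and 10.4 CPM, against 28.4, 7.23 and 22.2 CPM of Il4i1 without treatment. Both overlapped between treatments, and none of the 19 genes passed for IC in any subset.

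**Figure D4:**
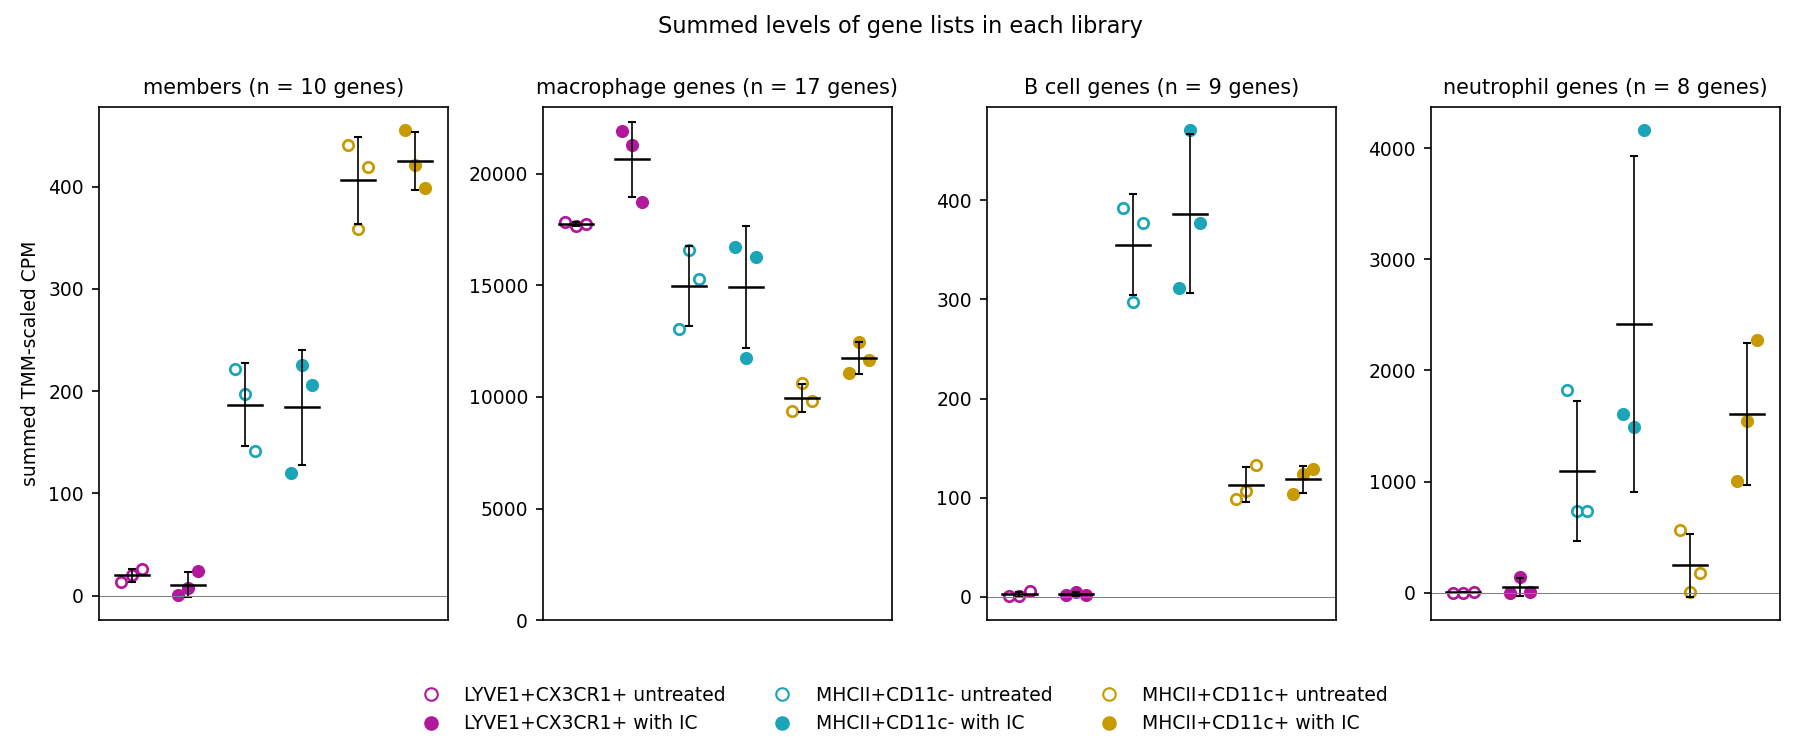
Summed level (TMM-scaled CPM, linear axes) of the 10 members and of macrophage, B cell and neutrophil genes in each library, with lines for the mean and bars for the SD of 3 libraries. The members sum to 358.3 to 455.1 CPM in MHCII+CD11c+ libraries and to less than 230 CPM elsewhere, while macrophage genes sum to 9386 CPM or more in every library. Cd24a has the highest mean of the members in every group.

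The genes of macrophages were abundant in the same MHCII+CD11c+ libraries. All 17 macrophage genes of the list were detected in every group, and they summed to 9386 to 10603 CPM in untreated MHCII+CD11c+ libraries, 13026 to 16580 CPM in MHCII+CD11c- libraries and 17636 to 17814 CPM in LYVE1+CX3CR1+ libraries. The 10 dendritic cell markers summed in the same order of subsets to 358.3 to 440.8, 142.0 to 222.1 and 13.5 to 25.8 CPM, the reverse ranking. Cd24a, which other cell types also carry, was the largest part of these sums. It averaged 190.4, 69.2 and 8.12 CPM of mean sums of 406.0, 187.0 and 19.8 CPM. None of the 17 macrophage genes was higher and 6 were lower in MHCII+CD11c+ than in MHCII+CD11c- cells without treatment (list median -0.64), and 0 and 3 with IC. The complement genes C1qa, C1qb and C1qc had log2 fold changes of -0.89, -1.02 and -0.91 (SE 0.14, 0.16 and 0.14). They still stood at 969.3 to 1221 CPM (C1qa), 894.6 to 1094 CPM (C1qb) and 981.5 to 993.9 CPM (C1qc) in those libraries. Fcgr1, the receptor CD64 used to tell macrophages from dendritic cells, was at 51.5, 48.0 and 55.0 CPM against 65.1, 89.2 and 89.9 CPM, and Mertk, a receptor for dying cells, at 56.2, 63.8 and 53.5 CPM against 61.6, 114.9 and 84.8 CPM. Neither passed.

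Levels of different genes can be compared only per length. Per kb of exon, Cd24a stood at 73.8 ± 19.7 CPM in untreated MHCII+CD11c+ cells, above all the other members. Batf3 (18.2 ± 5.11) and Ccr7 (16.8 ± 7.99) came next and did not differ from each other beyond their spread. Fscn1 (7.70 ± 5.49), Flt3 (7.43 ± 3.96), Dpp4 (6.82 ± 1.34) and Kmo (6.37 ± 0.95) could not be ranked, and Siglech (2.49 ± 1.22), Il12b (0.69 ± 0.67) and Xcr1 (0.29 ± 0.40) were lowest. On the same scale C1qa was at 1040 ± 123.2, Csf1r, the receptor for a macrophage growth factor, at 278.5 ± 28.1, Fcgr1 at 19.9 ± 1.35 and Mertk at 13.3 ± 1.22 CPM per kb. With IC, Ccr7 (34.5 ± 10.7) and Fscn1 (29.0 ± 12.7) ranked after Cd24a (71.0 ± 3.22), ahead of Batf3 (16.0 ± 5.14), and their spreads overlapped.

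Markers of other cell types were present too. Of 9 B cell genes, 4 were lower in untreated MHCII+CD11c+ than in MHCII+CD11c- cells and 2 with IC. Cd79a, a chain of the B cell receptor, was at 21.5, 34.2 and 35.7 CPM against 123.2, 66.0 and 101.1 CPM (log2 fold change -1.67, SE 0.36, adjusted p = 0.00697), and Fcmr and Ms4a1 changed by -1.71 and -1.60. Of 11 T and NK cell genes 2 were tested, and Cd2, which dendritic cells can also express, was higher in MHCII+CD11c+ cells with IC (log2 fold change 1.65, SE 0.39, adjusted p = 0.0190). None of the 7 monocyte, 8 neutrophil, 6 fibroblast, 3 endothelial or 5 erythroid genes tested passed between the MHCII+ subsets in either state.

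Over the 18 libraries each member was also compared with the tested genes outside the member list by Pearson's r of log2 CPM, as a description that mostly reflects the difference between subsets. Fscn1 was most like Apol7c (r = 0.94), Il4i1 (0.93) and Ccl22 (0.92), and the low untreated MHCII+CD11c+ replicate 2 was also the lowest of the 6 for Apol7c (3.29 CPM) and Il4i1 (7.23 CPM). For Ccl22 replicate 1 was the lowest (30.5 CPM), next to replicate 2 (30.9 CPM). The 3 genes were picked for their likeness to Fscn1 over these same libraries, so a shared low library is partly built in. Ccr7 was most like the MHCII genes H2-Aa, H2-Ab1 and H2-Eb1 (r = 0.97 for each). Flt3 was most like Ngfr and Tep1 (both 0.95) and Rras2 (0.94), Kmo like Cd209a (0.96), A430078G23Rik (0.96) and Nup210 (0.96), and Batf3 like the lectin genes Cd209f (0.93) and Cd209g (0.92) and Tbc1d8 (0.92). Cd24a was most like Glipr2 (0.97), Atp8b4 and Emb (both 0.95), Dpp4 like Selplg (0.97), Arhgap26 and Tiam1 (both 0.96), and Siglech like Osbpl8 (0.89), Tnfrsf25 and Kif23 (both 0.87).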

How the data were processed

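RNA of 3 sorted subsets of synovial macrophages was sequenced in 18 libraries, 3 for each subset and treatment, grouped by the sample labels. The deposited values are raw counts per gene symbol, which the authors made with featureCounts after HISAT2 alignment to mm10 of reads trimmed by Trim Galore. Versions, annotation, strand setting and the handling of duplicates are not given in the sources used here. Where reads carry no molecular identifiers, floors cover counting error only. Nothing in the labels says that libraries came from separate pools of mice. By the mouse numbers in the paper's legend to its plot of the 3 subsets, each point was a separate pool of 3 mice. That legend does not mention IC. The p-values measure only the spread between these libraries. A combined table held the same values and was not used.

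With edgeR 4.0.16 in R 4.3.3, filterByExpr (minimum count 10, minimum total 15) kept 10550 of 24421 symbols, 8 of the 10 members among them. Xcr1 and Il12b were read from a fit without the filter. One quasi-likelihood model with TMM factors covered all 6 groups, and 12 comparisons were each adjusted by Benjamini-Hochberg at 0.05. Log2 CPM used a prior count of 2. A fold against a group at its floor (3 counts) divides the mean of the higher group by the mean floor of the other. It is a lower bound with respect to the floor only and leaves out the spread of the higher group. The tests were checked on simulated counts. Alternatives were DESeq2 size factors, DESeq2 1.42.0, other filters, only the libraries compared, blocks, a surrogate variable (sva 3.50.0) and leaving out each library. Coordinates and exon lengths are from the GRCm38 annotation, counted from 1, and all 10 symbols matched RefSeq names.

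The members and the 14 other gene lists were chosen with earlier results of these data known. The genes named are the members, the sorting genes, for each list the 3 genes of lowest adjusted p among those called between the untreated MHCII+ subsets (for dendritic cell lists also with IC), and the 3 genes most like each member. Clec9a, Irf8, Irf4, Tcf4, Fcgr1, Mertk and Csf1r were named in addition as defining genes, and Zbtb46 and Il4i1 without treatment, Cd209a with IC, Cd2, Spib, Ly6d, Tlr9, Runx2 and Irf7 after their values were seen.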

Additional observations from a re-analysis of the deposited data

Results flagged for a closer look

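Fscn1 was listed because in MHCII+CD11c+ cells each library with IC exceeded each untreated library (55.4 to 129.6 against 5.26 to 37.8 CPM), whereas in the other subsets each was lower. No subset passed the test of IC against no treatment. In MHCII+CD11c- cells both groups were at the floor (2, 2 and 3 counts without treatment, 0 with IC), so no fall can be read there. LYVE1+CX3CR1+ libraries had 8, 4 and 2 counts without treatment and 0, 1 and 1 with IC. The fitted difference in the response was 6.73 in log2 against MHCII+CD11c- cells (SE 2.22, adjusted p = 0.769 in edgeR) and 4.63 against LYVE1+CX3CR1+ cells (SE 1.16, adjusted p = 0.645). Neither passed over all genes. Both sizes depend on groups with few or no counts and are no bound. The groups of 3 libraries are too small for a test of single outlying libraries.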

How the results depend on the processing

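Of the counts of members called, those between MHCII+CD11c+ and MHCII+CD11c- cells depended most on single libraries, with 1 to 4 called without treatment (4 with all libraries) and 1 to 2 with IC (2 with all). Only the libraries compared gave 1 call between these subsets with IC and 3 calls each without treatment and with IC between MHCII+CD11c- and LYVE1+CX3CR1+ cells, where 3 members were tested. For IC against no treatment, with 0 calls, no filter, the replicate block and 1 surrogate variable each gave 1 call in MHCII+CD11c+ cells (Fscn1). No filter also gave 1 call in LYVE1+CX3CR1+ cells and 1 for the response of MHCII+CD11c+ against LYVE1+CX3CR1+ cells. No member had 10 counts in every library, so that filter gave no count of members.

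The sign changed when libraries were left out for members that were not called. Between the MHCII+ subsets the log2 fold changes ranged from -0.32 to 0.79 (Batf3), -1.31 to 0.037 (Siglech) and -0.69 to 0.0078 (Ccr7) without treatment and from -0.19 to 0.91 (Kmo) with IC. For IC in MHCII+CD11c+ cells they ranged from -0.50 to 0.075 (Batf3) and -0.20 to 0.18 (Cd24a), and for MHCII+CD11c- against LYVE1+CX3CR1+ cells from -0.57 to 0.56 (Fscn1). The cause was not tested.

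Same-numbered libraries of different subsets and the same treatment had correlations of their deviations of -0.05 to 0.13 over 18 pairs, and nothing in the labels ties numbers to mice. A replicate block over all libraries left 4 and 2 members called between the MHCII+ subsets, and a replicate block by pool (same number and treatment) left 3 without treatment, Dpp4 being lost (adjusted p = 0.0536). It also lost Siglech between untreated MHCII+CD11c- and LYVE1+CX3CR1+ cells (0.0648). Cd24a with IC was called with no filter (adjusted p = 0.00199).

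Over all genes, calls between the MHCII+ subsets numbered 368 without treatment (187 to 587 over the alternatives) and 300 with IC (100 to 472). They numbered 2303 and 2081 for MHCII+CD11c+ (1291 to 2839 and 1182 to 2419) and 1207 and 1031 for MHCII+CD11c- against LYVE1+CX3CR1+ cells (750 to 1472 and 460 to 1258). For IC they were 71 in MHCII+CD11c+ (14 to 250), 112 in MHCII+CD11c- (19 to 337) and 49 in LYVE1+CX3CR1+ cells (13 to 272), and for differences in response 1, 1 and 0 (up to 29, 27 and 20). Depth limits Xcr1, Il12b and the MHCII+CD11c- libraries with IC.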
